A study of Mus musculus with 14 samples.

Results

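The replication-independent histone genes H3f3a, H3f3b and H1f0 were described from ChIP-seq peak lists of neural stem cells grown as neurospheres from mouse hindbrain at E15.5. For each gene, all deposited peaks that overlap a fixed window of build mm9 were taken: chr1:182725000-182750000 for H3f3a, chr11:115875000-115895000 for H3f3b and chr15:78850000-78868000 for H1f0. The 3 windows held 128 of the 557412 peaks of the 12 lists, 88 of 350680 from FLAG and 40 of 206732 from H3K4me3. The mutant group of 3 cultures had the genotype Nestin-cre; H3f3aLSL-K27M-Tag/+ (K27M-Tag) and the 3 controls had Nestin-cre; H3f3aLSL-WT-Tag/+ (WT-Tag), so all 6 cultures carried the Cre driver and 1 tagged allele of H3f3a, which in K27M-Tag also encodes the K27M substitution. Each culture gave 1 library with an antibody against FLAG and 1 with an antibody against H3K4me3. By the labels 5 cultures were female, and the only male one was WT-Tag replicate 3. Nestin-cre acts in neural progenitors, and an untagged culture was not analysed here, so the FLAG signal without a tag is not known. The labelled cell type was not checked against marker genes, because no annotation of mm9 was at hand. The labels do not say whether the 3 cultures of a genotype came from separate embryos, so spreads and p-values measure the variation between these cultures only. The windows were drawn with the FLAG contrast between genotypes known, so that contrast is described at these genes without a test.

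H3f3a and H3f3b both encode the histone variant H3.3, which is made throughout the cell cycle and placed in chromatin outside replication, by the HIRA complex at active genes and by DAXX and ATRX at telomeres and other repeats. Unlike the clustered histone genes used in S phase, they have introns and give polyadenylated messages. H1f0 encodes the linker histone H1.0, which binds the DNA between nucleosomes and is known for accumulating in cells that stop dividing or differentiate. The K27M substitution of H3.3, found in diffuse midline gliomas, lowers trimethylation of lysine 27 by the PRC2 complex, and H3K4me3 marks the promoters of active genes. The FLAG antibody reads where the tagged H3.3 protein sits along the genome. H3f3a is in this set as the gene that carries the tagged allele. Its peaks were counted in the same way as those of the other 2 genes. Any effect of the tagged allele on the placement of reads at this locus was not tested.

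The windows of all 3 genes carried H3K4me3 in all 6 cultures, so the promoters of the genes are shown. They come from RefSeq, which gives 1 promoter for each of the 3 genes in build GRCm38.p6, from 250 bases before to 50 bases after the start of the gene. These positions cannot be set against the mm9 positions of the peaks. Capitals mark the motifs CCAAT and TATAAA on either strand (ATTGG and TTTATA on the printed strand).
H3f3a promoter, chr1:180813556-180813855, minus strand: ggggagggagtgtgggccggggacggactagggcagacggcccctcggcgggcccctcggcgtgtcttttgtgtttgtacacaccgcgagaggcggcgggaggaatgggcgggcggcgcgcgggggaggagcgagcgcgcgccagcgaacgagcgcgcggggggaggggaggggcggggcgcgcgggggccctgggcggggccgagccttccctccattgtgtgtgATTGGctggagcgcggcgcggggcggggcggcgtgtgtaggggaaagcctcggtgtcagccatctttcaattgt
H3f3b promoter, chr11:116024455-116024754, minus strand: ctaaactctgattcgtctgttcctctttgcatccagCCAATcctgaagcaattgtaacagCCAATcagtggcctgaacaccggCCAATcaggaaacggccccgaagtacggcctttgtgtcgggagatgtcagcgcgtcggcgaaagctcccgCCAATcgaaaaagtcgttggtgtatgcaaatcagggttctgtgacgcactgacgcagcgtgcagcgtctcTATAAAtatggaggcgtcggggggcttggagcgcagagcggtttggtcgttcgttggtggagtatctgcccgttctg
H1f0 promoter, chr15:79027962-79028261, plus strand: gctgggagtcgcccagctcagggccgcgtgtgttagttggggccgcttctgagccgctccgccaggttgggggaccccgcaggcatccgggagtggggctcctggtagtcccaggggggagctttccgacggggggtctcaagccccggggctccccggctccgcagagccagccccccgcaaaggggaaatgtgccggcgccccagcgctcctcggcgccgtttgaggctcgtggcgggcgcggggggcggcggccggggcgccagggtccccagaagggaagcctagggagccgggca
The H3f3b promoter held 4 matches to CCAAT and 1 to TATAAA, the H3f3a promoter 1 and 0, and the H1f0 promoter 0 of each. Of 32851 mouse promoters of this length, 37.4% held CCAAT and 13.6% TATAAA. The GC box GGGCGG, searched on both strands with overlaps allowed and found in 35.7% of promoters, occurred 6 times at H3f3a, 0 times at H3f3b and 1 time at H1f0. GC content was 74.0% at H3f3a and 75.0% at H1f0, against 55.0% at H3f3b and a median of 52.7% over all promoters. CpG dinucleotides numbered 39, 24 and 29 at H3f3a, H3f3b and H1f0, against a median of 7. The H3f3b promoter thus stood apart from the other two in base composition and in the boxes it held.

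The deposited lists give no read totals. A whole-number fragment pileup at each summit was recovered from the authors' fold and p, with a most common background of 2.77 to 3.60 fragments over the 12 lists. At that background the lowest peak had 11 to 13 fragments in FLAG and 10 to 13 in H3K4me3, so a place without a peak there is one below about that height. Where the local background is higher, the limit can be higher too. In K27M-Tag replicate 3, a FLAG peak at H3f3a of 17 fragments over a local background of 5.25 outscored only 2.24% of its list. The FLAG lists were longer in K27M-Tag, with 57589 to 88285 peaks against 32763 to 47293 in WT-Tag. The H3K4me3 lists held 35366 to 38720 and 31932 to 32504 peaks. The part of list length in the FLAG values below was examined by taking 32763 top-scoring peaks from every FLAG list.

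At H3f3a, FLAG lay on the H3K4me3-marked span in all 3 K27M-Tag cultures and in none of the 3 WT-Tag cultures, while the stretch at lower positions held FLAG in all 3 WT-Tag and 2 of 3 K27M-Tag cultures. H3K4me3 covered chr1:182741090-182745043 as a broad and a narrow region that were both present in all 6 lists. RefSeq (GRCm38.p6) places H3f3a on the minus strand with Acbd3 and Sde2 as its neighbours, so lower positions lie toward the 3′ end of the gene. FLAG peaks covered 1379, 1223 and 2023 bp of that H3K4me3 span in K27M-Tag replicates 1 to 3 and 0 bp in each WT-Tag culture. The K27M-Tag values averaged 1542 bp ± 424 (SD, n = 3), with no overlap between genotypes. With equal list sizes they were 1379, 1062 and 1712 bp. The WT-Tag values could only stay at 0, since this step removes peaks and adds none.

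The K27M-Tag FLAG peaks on the H3K4me3 span of H3f3a formed 2 groups, beside 1 peak of 311 bp in replicate 3 only. The first group, chr1:182742363-182743547, had summits at 182742799, 182742808 and 182742768 with 21, 21 and 33 fragments in K27M-Tag replicates 1 to 3. The second, chr1:182744237-182745514, covered 1247, 758 and 1170 bp and reached past the upper end of the span. Both are merged FLAG regions found in the 3 K27M-Tag lists and in no WT-Tag list. Of the 25 merged FLAG regions in the 3 windows, 3 were of this kind, and over all 117816 merged FLAG regions the share was 9.89%; the windows were chosen on this contrast, so the count supports nothing. The reverse, all 3 WT-Tag and no K27M-Tag list, held for 0 of the 25 and for 0.585% of all. Between the 2 groups lay a stretch without any peak. The broad and narrow H3K4me3 peaks were parted by 75, 57 and 113 bp in K27M-Tag and 136, 131 and 106 bp in WT-Tag, and the 57 bp common to all 6 gaps, chr1:182743788-182743844, carried a peak in 0 of the 12 lists.

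Beyond the span, toward lower positions, FLAG covered 1359, 0 and 1859 bp in K27M-Tag and 850, 3427 and 2651 bp in WT-Tag at H3f3a. These ranges overlapped, and K27M-Tag replicate 2 was the only FLAG list without a peak there. On the other side, toward higher positions, FLAG covered 710, 731 and 750 bp against 0, 276 and 305 bp, without overlap. The merged region chr1:182730861-182732332 was in 2 K27M-Tag and all 3 WT-Tag lists, with 739, 0 and 1085 bp against 583, 1472 and 1036 bp. Its WT-Tag summits lay 8450 to 9447 bp from the nearest H3K4me3 peak of the same culture. Over the whole H3f3a window the covered lengths were 3448, 1954 and 4632 bp against 850, 3703 and 2956 bp, with a K27M-Tag mean of 3345 bp ± 1342 (SD, n = 3) and a WT-Tag mean of 2503 bp ± 1479 (SD, n = 3). That difference of 842 bp was smaller than either spread, it was 15.2 bp without WT-Tag replicate 1 and 198 bp without K27M-Tag replicate 3, and with equal list sizes it was -133 bp.

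**Figure D1:**
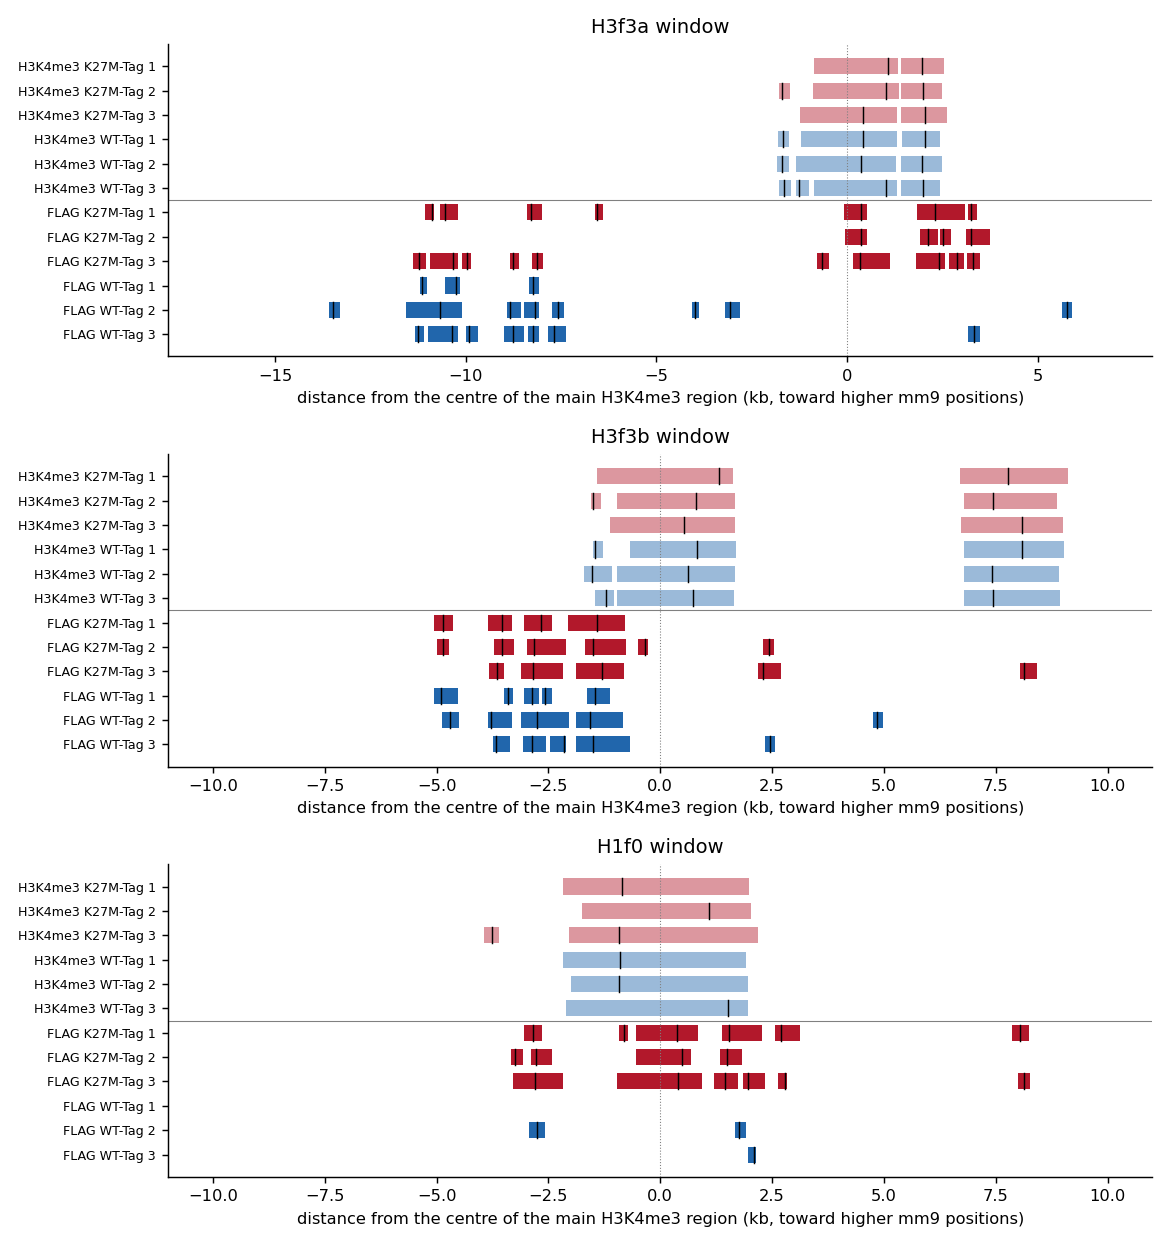
Peaks of the 12 lists in the windows of H3f3a, H3f3b and H1f0, with 1 row per library (H3K4me3 above the line in pale colours, FLAG below it, K27M-Tag red and WT-Tag blue). The x axis is the distance in kb from the centre of the main H3K4me3 region, bars are peaks and black ticks their summits. FLAG peaks lie under H3K4me3 at H3f3a and at the middle of H1f0 in the K27M-Tag rows only. At H3f3b they lie beside it and overlap it in part in all 6 rows.

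At H3f3b, the second H3.3 gene, FLAG was alike in position in both genotypes. In all 6 cultures the largest part of it lay at lower positions than the main H3K4me3 region, and some of it overlapped that region. Below the region FLAG covered 1927, 1567 and 1455 bp in K27M-Tag and 1337, 2175 and 1409 bp in WT-Tag. Within it FLAG covered 908, 1139 and 886 bp against 513, 868 and 1020 bp. Above it FLAG covered 0, 251 and 866 bp against 0, 220 and 237 bp. The main H3K4me3 region was chr11:115882621-115886012. RefSeq places H3f3b on the minus strand, so the side with the largest part of FLAG is that of the 3′ end. The largest FLAG region, chr11:115881204-115883640, was covered over 1891, 1797 and 2016 bp in K27M-Tag and 1091, 2141 and 2063 bp in WT-Tag. A second region, chr11:115880461-115881039, was covered over 522, 434 and 325 bp against 209, 536 and 366 bp. These are the 2 merged FLAG regions of the windows that occurred in all 6 lists, as did 10.2% of all merged FLAG regions.

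Over the H3f3b window, FLAG covered 2835, 2957 and 3207 bp in K27M-Tag and 1850, 3263 and 2666 bp in WT-Tag. The means were 3000 bp ± 190 (SD, n = 3) and 2593 bp ± 709 (SD, n = 3), and the WT-Tag values lay on both sides of the K27M-Tag ones. WT-Tag replicate 1, the shortest FLAG list, was the lowest, and without it the difference of 407 bp was 35.2 bp. With equal list sizes the difference was -342 bp. On the H3K4me3 peaks of the same culture FLAG covered 623, 654 and 687 bp in K27M-Tag and 213, 758 and 724 bp in WT-Tag, so at this gene the overlap was present in both genotypes. The highest-scoring FLAG peak reached 24, 27 and 33 fragments in the mutant cultures against 25, 33 and 33 in the controls. The percentile of that peak, the share of peaks of its own list with a lower score, was 78.2, 85.6 and 90.1 for the K27M-Tag cultures and 93.8, 98.0 and 98.1 for the WT-Tag cultures, but these ranks come from lists of different length and cannot be read as a change. The H3f3b window also held a second H3K4me3 region, chr11:115891013-115893428, on the side where RefSeq lists Unk as the next gene. FLAG was found on it in 1 of 6 lists, over 363 bp in K27M-Tag replicate 3.

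At H1f0, the linker histone gene, FLAG covered 3623, 2466 and 4314 bp in K27M-Tag and 0, 588 and 193 bp in WT-Tag. The means were 3468 bp ± 934 (SD, n = 3) and 260 bp ± 300 (SD, n = 3), and the lowest K27M-Tag value lay above the highest WT-Tag value. With 32763 peaks from every list the difference of 3207 bp was 2027 bp. The FLAG region at the middle of the window, chr15:78859015-78860917, was in the 3 K27M-Tag lists and in no WT-Tag list. It was covered over 1603, 1238 and 1903 bp, with summits at 78860346, 78860459 and 78860375. Those summits had 45, 43 and 47 fragments and stood at percentiles of 99.0, 99.1 and 98.4, which are ranks 683, 454 and 1261 of their lists. In WT-Tag, the lists held a peak at both flanks in replicate 2, with 25 and 21 fragments, and 1 of 14 fragments on the higher flank in replicate 3. WT-Tag replicate 1 held none.

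H1f0 has 1 H3K4me3 region in all 6 lists, chr15:78857791-78862160, and FLAG within it covered 2410, 1736 and 2800 bp in K27M-Tag and 0, 233 and 193 bp in WT-Tag. FLAG was merged into 5 regions in the window, of which 3 were in all K27M-Tag lists. The lower flank, chr15:78856650-78857809, was covered over 399, 730 and 1134 bp, the middle as given, and the higher flank, chr15:78861169-78862315, over 895, 498 and 1033 bp. The other 2 regions, chr15:78862541-78863094 with 554, 0 and 217 bp and chr15:78867829-78868236, were in K27M-Tag replicates 1 and 3 only. The flanks had a WT-Tag peak in 1 and 2 of 3 lists and the middle in 0. RefSeq places H1f0 on the plus strand between Triobp and Gcat, and without an mm9 annotation the flanks were not assigned to a gene. At the upper end of the window 2 K27M-Tag peaks cross its border and were counted up to it.

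**Figure D2:**
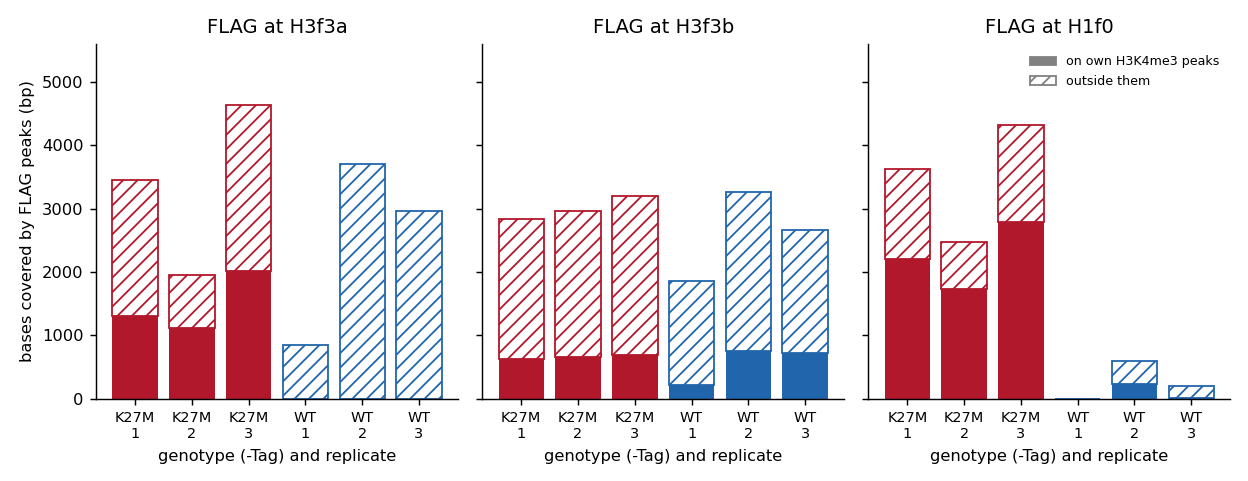
Bases covered by FLAG peaks in each gene window (y axis, bp) for each culture (x axis), split into bases on H3K4me3 peaks of the same culture (filled) and outside them (hatched), K27M-Tag red and WT-Tag blue. At H3f3a the filled part is 1110 to 2023 bp in K27M-Tag and 0 in WT-Tag, at H3f3b it is present in all 6 cultures, and at H1f0 it is 1736 to 2781 bp against 0 to 233 bp.

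Seen from H3K4me3, the 3 genes differed in how much of the mark carried FLAG. In K27M-Tag, FLAG peaks covered 53.3% ± 7.58 (SD, n = 3) of the H3K4me3 bases in the H1f0 window, 41.4% ± 12 (SD, n = 3) at H3f3a and 12.7% ± 1.15 (SD, n = 3) at H3f3b. At H3f3a the values were 39.1%, 30.7% and 54.4%, and at H1f0 53.0%, 45.9% and 61.1%, so these ranges overlapped each other and lay above the 11.4% to 13.6% of H3f3b. In WT-Tag the order was different. FLAG covered 4.42%, 14.1% and 13.9% of H3K4me3 bases at H3f3b, 0%, 5.86% and 0.367% at H1f0, and 0% in all 3 cultures at H3f3a. The H3f3b percentages include the second H3K4me3 region of its window, of 2080 to 2416 bp, which carried FLAG in 1 of 6 lists. Over the span of each gene's own H3K4me3 alone, FLAG covered 34.9%, 30.9% and 51.2% at H3f3a, 26.8%, 33.6% and 26.1% at H3f3b, and 55.1%, 39.7% and 64.1% at H1f0 in K27M-Tag. H1f0 was then the highest in each of these cultures, while H3f3b was the lowest in replicates 1 and 3 and lay above H3f3a in replicate 2. The order of the genes was not tested, since it comes from the contrast that chose them.

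Peak heights gave another view of the order. The highest-scoring FLAG peak of H3f3a had 23, 21 and 33 fragments in the mutant cultures and 19, 27 and 25 in the controls, against 45, 43 and 47 at H1f0 in K27M-Tag. By that peak, H1f0 was the highest of the 3 genes in each K27M-Tag library. H3f3b was level with H3f3a in replicate 3, at 33 fragments, and above it in replicates 1 and 2. The highest-scoring peak is not always the tallest. In K27M-Tag replicate 1 the tallest FLAG peak had 25 fragments at both H3f3a and H3f3b. At H3f3a the highest-scoring peak lay outside the H3K4me3 span in K27M-Tag replicate 1 and in all 3 WT-Tag cultures. In K27M-Tag replicate 2 a peak on the span tied with 1 above it. In each WT-Tag library H3f3b was above H3f3a, and H1f0 was the lowest or had no peak. In summit fragments, H3K4me3 kept 1 order in all 6 libraries. Its highest-scoring peak had 281, 287 and 259 fragments in the mutant cultures and 188, 223 and 238 in the controls at H3f3b, 249, 236 and 235 against 128, 188 and 173 at H3f3a, and 146, 120 and 168 against 106, 131 and 131 at H1f0. Within their lists these H3K4me3 peaks stood at percentiles of 83.1 to 98.5 at H3f3b, 76.8 to 90.7 at H3f3a and 61.9 to 70.8 at H1f0.

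**Figure D3:**
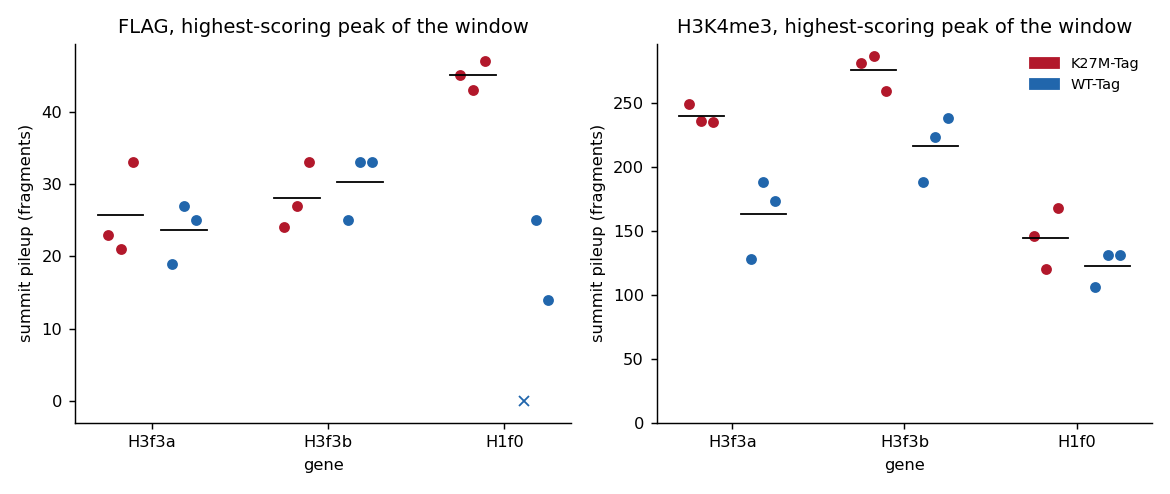
Fragments at the summit of the highest-scoring peak of each window (y axis, linear) by gene (x axis), FLAG on the left and H3K4me3 on the right, with 1 point per library and a black line at the mean of 3. The cross at 0 marks WT-Tag replicate 1 at H1f0, which had no FLAG peak; the K27M-Tag points of H1f0 at 43 to 47 lie above all other FLAG points, whereas in H3K4me3 H1f0 is the lowest gene.

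H3K4me3 was measured in libraries of its own, apart from the FLAG contrast by which the genes were proposed, and was tested between genotypes. Those libraries came from the same cultures as the FLAG ones. The windows and tests were chosen with earlier results of these data known. In the H3f3a window it covered 3330, 3621 and 3719 bp in K27M-Tag and 3800, 4046 and 3842 bp in WT-Tag, a difference of -339 bp with no overlap of ranges. Region by region the picture was mixed: the broad H3f3a region overlapped between genotypes, and the narrow one was higher in K27M-Tag without overlap. Of all 22592 H3K4me3 regions present in all 6 lists, 37.9% were higher without overlap and 2.06% lower, and neither H3f3a region was among the latter. In the H3f3b window the values were 5462, 4956 and 5070 bp against 4815, 5359 and 5191 bp, and in the H1f0 window 4166, 3780 and 4554 bp against 4101, 3976 and 4085 bp, and both sets overlapped. A two-sided exact permutation test of the means had p = 0.1 for H3f3a, 0.9 for H3f3b and 0.7 for H1f0, and Benjamini-Hochberg adjustment over the 3 windows gave 0.3, 0.9 and 0.9. With 3 cultures against 3 the smallest possible p is 0.1.

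The breadth of the shared H3K4me3 regions in the windows was tested with limma on log2 covered bp. The fit ran over all 22592 shared regions, of which 8.11% had an adjusted p under 0.05, 7.56% as wider in K27M-Tag and 0.549% as narrower. Of the 5 regions in the windows 0 did, and 0 had an unadjusted limma p under 0.05. At the broad H3f3a region, chr1:182741090-182743787, the log2 difference was -0.13 (SE 0.06, limma adjusted p = 0.186), from 2211, 2234 and 2534 bp against 2513, 2639 and 2494 bp. At the narrow H3f3a region, chr1:182743845-182745043, it had the other sign, 0.14 (SE 0.08, limma adjusted p = 0.260), from 1119, 1086 and 1185 bp against 998, 1069 and 1016 bp. The main H3f3b region gave -0.02 (SE 0.08, limma adjusted p = 0.880) and the second one 0.06 (SE 0.06, limma adjusted p = 0.525). The H1f0 region gave 0.00 (SE 0.05, limma adjusted p = 0.997), against a median log2 difference of 0.14 over all tested regions. These values depend on the scaling. With each list centred on its median, the broad H3f3a region had -0.27 (SE 0.06, limma adjusted p = 0.0564), H1f0 -0.14 (SE 0.05, limma adjusted p = 0.147) and the main H3f3b region -0.16 (SE 0.07, limma adjusted p = 0.227). The narrow H3f3a region and the second H3f3b region then turned negative, and still 0 of the 5 had an adjusted p under 0.05. Unadjusted limma p in this setting was 0.00204 at the broad H3f3a region and 0.021 at H1f0, and above 0.05 at the others.

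Part of the H3f3a window's difference lay in a small H3K4me3 peak at chr1:182740587-182740975, below the span. It covered 289, 338 and 332 bp in WT-Tag and 301 bp in 1 of 3 K27M-Tag cultures, with 23 to 24 fragments in WT-Tag and 15 in that culture. With only the 50% of peaks that scored highest in each list, the difference of the H3f3a window was -10.0 bp. The summit of the broad H3f3a peak was higher in K27M-Tag. In multiples of the list's background it reached 74.8, 85.1 and 67.1 in the mutant cultures against 44.3, 64.9 and 53.4 in the controls, a ratio of means of 1.40 without overlap. Of all shared regions 33.2% were higher without overlap by this measure and 1.03% lower, and the ratio of the medians over them was 1.31, so the H3f3a value is near that of H3K4me3 regions at large. The ratios were 1.21 at H3f3b and 1.10 at H1f0, where the ranges overlapped. These values are not scaled by the Drosophila spike-in.

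Against all shared H3K4me3 regions, the 3 genes spread over the range of FLAG differences. FLAG within the main region averaged 2315 bp in K27M-Tag and 142 bp in WT-Tag at H1f0, 812 and 0 bp at H3f3a, and 978 and 800 bp at H3f3b; the medians over all shared regions were 266 and 0 bp. Higher FLAG bp in K27M-Tag without overlap, as at H1f0 and H3f3a, held for 40.7% of shared regions and lower for 0.0354%, and FLAG in all 3 K27M-Tag and no WT-Tag list for 16.5%, as at both regions of H3f3a; 31.7% had FLAG in no list. By the summit over the list's background, 31.4% were higher and 0.239% lower. That FLAG summit averaged 13.4 ± 0.741 (SD, n = 3) in K27M-Tag at H1f0 against 0, 6.09 and 4.21 in WT-Tag, while H3f3b had 7.91, 8.09 and 9.16 against 8.09, 9.56 and 7.51. In this measure 0 stands for a list without a peak summit in the region and is not a measured height. The 31.4% and 0.239% count such lists as 0 too. In mean FLAG bp, the difference at H1f0 was reached or passed by 403 of the 22592 regions, that at H3f3a by 3718 and that at H3f3b by 11662. These differences were not scaled by region length, and a short region cannot hold a large one. The H1f0 region averaged 4056 bp of H3K4me3, against a median of 1437 bp. For FLAG in WT-Tag alone, H3f3b stood at the percentile of 96.5, H1f0 at 77.9 and H3f3a, without FLAG there, at 0. In H3K4me3 breadth, averaged over the 6 cultures, the genes stood at percentiles of 80.2 (H3f3a), 88.3 (H3f3b) and 96.1 (H1f0). All 3 were thus broader than most. The shares are those of the contrast that chose the genes and are given for scale only.

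**Figure D4:**
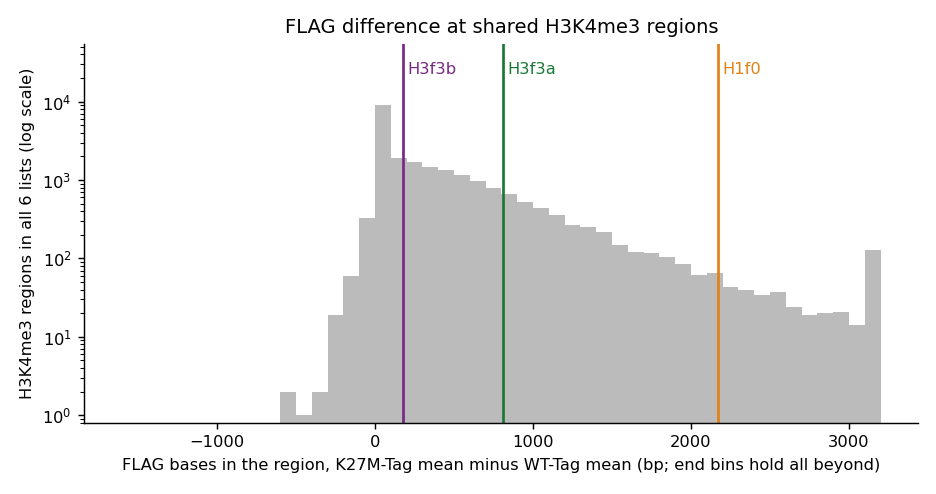
Number of H3K4me3 regions present in all 6 lists (y axis, log scale) by the FLAG bases inside them, K27M-Tag mean minus WT-Tag mean (x axis, bp, in bins of 100 bp whose end bins hold all values beyond). Coloured lines mark the main regions of H3f3b, H3f3a and H1f0, which lie near the middle, at the percentile of 83.5 and at that of 98.2.

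The regions most like each gene were taken by the mean absolute difference of log2(covered bp + 200) over all 12 libraries, both antibodies together. Closest to H3f3a was chr4:24776267-24778910, at a mean difference of 0.07, with FLAG over 782, 557 and 1150 bp in K27M-Tag and 0 bp in each WT-Tag culture. Next was chr8:35208058-35210911, at 0.08, with FLAG over 501, 603 and 1269 bp and again 0 bp. Closest to H3f3b were chr8:73032441-73035446 and chr4:43010427-43013975, at 0.16 and 0.17, where FLAG was present in all 6 cultures. One region like H1f0 was chr11:117192243-117196813, at 0.11, with FLAG over 3085, 1998 and 2968 bp in K27M-Tag and 0, 221 and 211 bp in WT-Tag. By this measure H3f3b had the more distant neighbours. Libraries with 0 bp in both regions add no difference, and H3f3b had FLAG in all 6 cultures, so the distances cannot be compared between the genes.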

How the data were processed

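Peaks of 12 ChIP-seq libraries were used, 1 deposited list per library. The submitters' processing notes name BWA 0.7.17-r1188, MACS2 2.2.7.1, bedtools 2.29.2 and the builds mm9 and dm6, without roles; control and threshold are not given in the sources used here. The labels list 2 composite inputs, 1 per genotype, which were not analysed here. The lists have no header and follow the narrowPeak order. The deposited score is the whole part of 10 times the −log10 q (within 1 unit), the deposited fold is a ratio over local background at the summit, and the −log10 p and −log10 q are the authors' values, with a lowest −log10 q of 2.00 in the 12 lists. Scores rank peaks within a list. Pileups were recovered as whole numbers that give both the deposited fold (pileup plus 1 over background plus 1) and the Poisson p within 0.0001.

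Covered bp were counted after clipping peaks to the window, and regions were merged at 1 bp of overlap. Genotypes were compared with exact permutation tests and limma 3.58.1 (trend, Benjamini-Hochberg over all shared regions, threshold 0.05), in R 4.3.3 and Python 3.11.15. The code was tested on simulated lists. The genes, windows and tests were chosen with earlier results of these data known. Named were the 3 genes, all their peaks, and the 2 regions nearest to each in pattern; 1 of these is not reported here. Lists of other histone-chaperone genes and of cell type markers could not be placed, since the gene table is of GRCm38.p6. Alternatives were the top 50% of peaks, equal list sizes (32763 FLAG or 31932 H3K4me3 peaks), a common −log10 p limit (4.22 and 3.89), joined gaps of 1000 bp, peaks at least 50% inside, the main region only, centring, each replicate left out, and the experiment number as a block. Values within the H3K4me3 span, summit ratios and comparisons with all shared regions were added after the lists had been seen.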

Additional observations from a re-analysis of the deposited data

How the results depend on the processing

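For FLAG over the H1f0 window the difference of 3207 bp was 2405 bp with the highest-scoring 50% of peaks, 2027 bp with equal list sizes, 4027 bp with joined gaps and 2173 bp in the main H3K4me3 region only, and from 2784 to 3708 bp with 1 replicate left out. For FLAG over the H3f3b window, equal list sizes gave -342 bp, and leaving out 1 replicate 35.2 to 742 bp; for H3f3a the latter gave 15.2 to 1537 bp. FLAG within the H3K4me3 span moved by less than the spread between cultures under all its alternatives, from 1301 to 1701 bp at H3f3a, 33.7 to 287 bp at H3f3b and 1931 to 2463 bp at H1f0 with 1 replicate left out. H3K4me3 over the H3f3b window (41.0 bp) turned to -103 bp with joined gaps and -51.3 bp in the main region only, and ranged from -112 to 160 bp with 1 replicate left out; H1f0 ranged from -81.0 to 306 bp and H3f3a from -420.5 to -226 bp. The limma log2 difference of H3f3b was 0.15 with the highest-scoring 50%, and with 1 replicate left out ran from -0.11 to 0.050 (H1f0 -0.031 to 0.050, H3f3a -0.20 to -0.10). These values had no call to lose, and the cause of their turns was not tested. With the experiment number as a replicate block the limma differences were -0.13, -0.02 and 0.00 for H3f3a, H3f3b and H1f0 (adjusted p = 0.247, 0.889 and 0.996), and the shared regions called numbered 508 against 1833. Deviations of same-numbered cultures correlated at 0.03, 0.03 and -0.01, so the number was not taken as a pairing. Centring each list gave -0.27, -0.16 and -0.14 (adjusted p = 0.0564, 0.227 and 0.147) and 700 calls, joined gaps 1002, the highest-scoring 50% 637, and 1 replicate left out from 76 calls, when K27M-Tag replicate 1 was omitted, up to 2548, when WT-Tag replicate 2 was. Lists end at their own limit, so a missing FLAG peak can be one just below about 11 to 13 fragments at the most common background. That limit can be higher where the local background is higher.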
